A study of Macaca mulatta with 30 samples.

Results

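The genes described here move calcium out of the internal stores of a cell and fill those stores again: the IP3 receptors ITPR1, ITPR2 and ITPR3, the store sensors STIM1 and STIM2, the entry channel ORAI1, the endoplasmic reticulum pumps ATP2A2 and ATP2A3, and the Golgi pumps ATP2C1 and ATP2C2. They were taken by symbol from a table of kallisto abundances, and all 10 were found among its 21292 gene names. They were listed by name without a cutoff on any value, but earlier results of these data were known. The tissues came from 6 rhesus macaques, 4 females (animals 1 to 4) and 2 males (animals 5 and 6), whose age, treatment and genotype the labels do not give. Each animal gave 1 flash-frozen sample of parotid, submandibular gland, sublingual gland, pancreas and liver, 30 libraries in all. Library names give a left parotid for 5 animals and a right one for animal 3. The study was set up to compare each salivary gland with pancreas, and pancreas with liver, within animals.

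In acinar cells of salivary glands and pancreas, hormones and nerve signals produce inositol trisphosphate (IP3), which opens IP3 receptors and releases calcium from the endoplasmic reticulum. The calcium drives enzyme secretion and opens chloride and potassium channels that carry fluid secretion. STIM proteins sense the emptied store and open ORAI1 in the plasma membrane, SERCA pumps (ATP2A genes) return calcium to the endoplasmic reticulum, and SPCA pumps (ATP2C genes) load the Golgi with calcium and manganese.

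Expression is given as TPM, a share of all transcripts of a library after division by transcript length, so that levels of different genes can be compared within a library. Every library sums to the same total, and the 10 most abundant genes took 20.3 to 27.4% of it in liver, 14.2 to 49.6% in pancreas, 18.7 to 52.5% in the sublingual, 11.1 to 78.9% in the submandibular and 38.8 to 81.4% in the parotid libraries. On the deposited scale all other genes can therefore move together. The median gene differed by -0.48 on the log2 scale between parotid and pancreas, and the cause of that difference was not tested. Some libraries stood apart from their tissue label. In animal 4 the summed level of 8 pancreatic acinar genes was 2681 TPM in the pancreas library, where the median over the 6 animals was 230378 TPM, and the sum of 8 serous genes was 9456 TPM in the submandibular library against a median of 275307 TPM. Those libraries held 14183 and 7697 TPM of 6 adipocyte genes, of which the medians were 79.6 TPM in pancreas and 71.6 TPM in submandibular gland. Adipocyte genes were not alone: the median blood marker stood there at 6708 and 5180 TPM, against tissue medians of 81.6 and 45.0 TPM. For fibroblast and smooth muscle markers it was 129 and 356 TPM (against 7.32 and 6.98 TPM), and for endothelium 41.4 and 26.8 TPM (against 1.82 and 0.473 TPM). Mucous markers were low in that animal's sublingual library, with a sum of 3166 TPM over 5 genes against a median of 202008 TPM. Islet genes (5 markers) summed to 132626 TPM in 1 pancreas library, where the next was 12700 TPM and the median 10933 TPM. The median level of these markers was highest in the pancreas library of animal 3, at 858 TPM (next 550 TPM). Skeletal muscle genes (9 markers) summed to 72993 TPM in the parotid library of animal 6, 23534 TPM in the sublingual library of animal 5, 7714 TPM in the sublingual library of animal 1 and 5359 TPM in the parotid library of animal 1. Their sum was 30.2 to 792 TPM in the other 26 libraries, and no listed marker of these sets was at 0 in all libraries of a tissue. The part of these other cells in the values below was not tested. Values without the pancreas and submandibular libraries of animal 4, or without the 3 libraries richest in muscle genes, are given beside the results described there whose call they change.

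The 10 genes differed in abundance, in ranges that overlapped. STIM1, ORAI1, ATP2A2 and ATP2A3 had tissue medians between 2.95 and 22.6 TPM, whereas the IP3 receptors, STIM2 and the Golgi pumps had tissue medians between 0.164 and 6.56 TPM. All 10 genes were above 0 TPM in every library. With the tissues ordered by median, the range of each overlapped that of the next for all 10 genes, and ITPR2 in liver against sublingual gland was the only pair of such neighbours to pass limma. Neighbours in this order are the closest tissues by median. The same was not counted over all genes, so the overlap is not given as a trait of these 10.

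**Figure D1:**
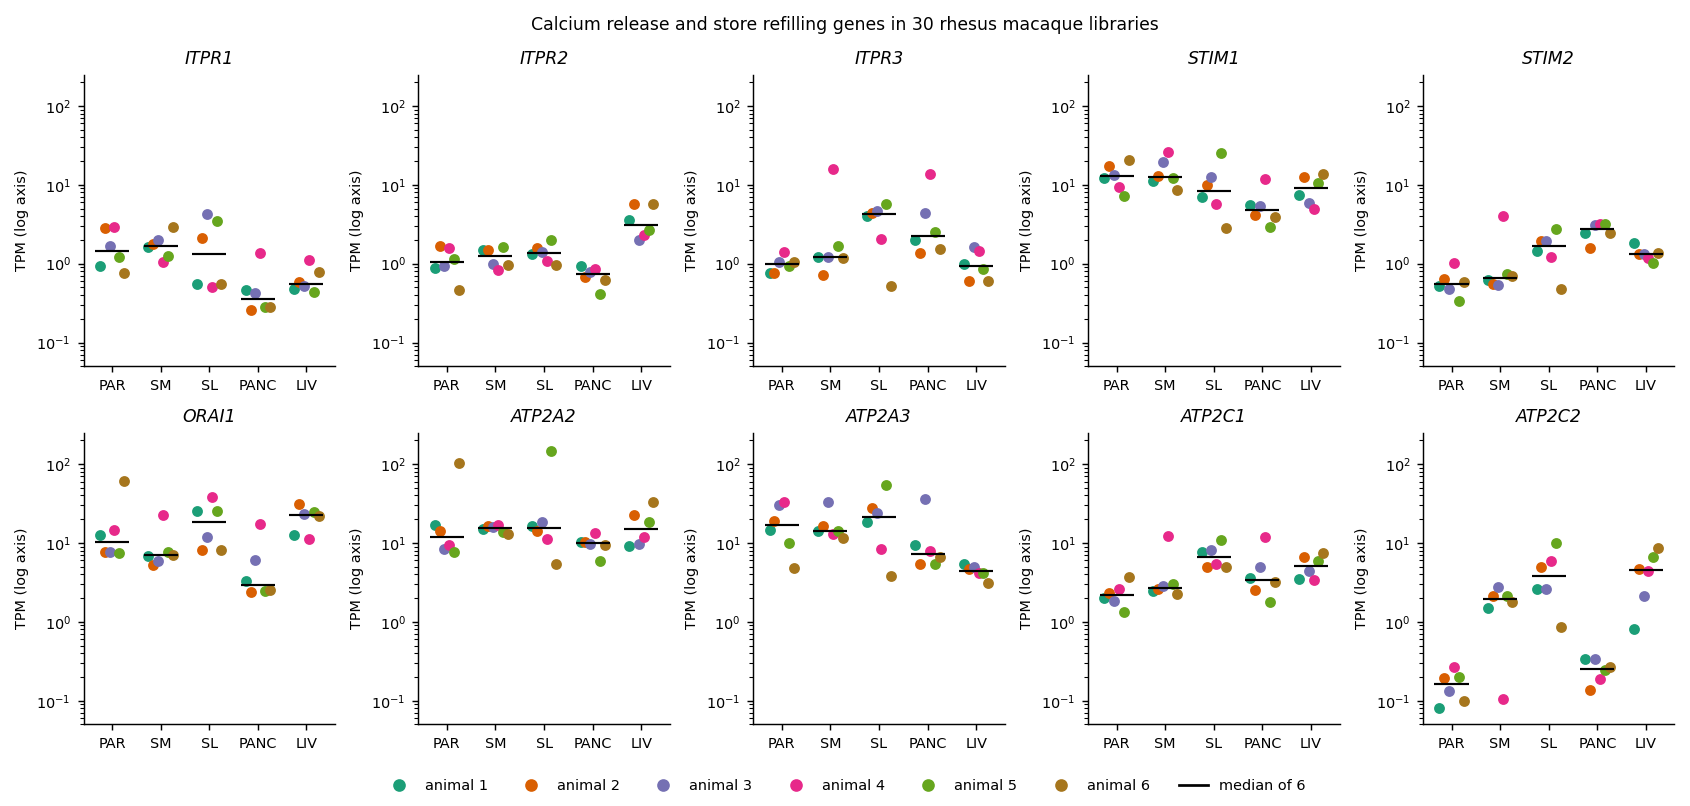
TPM of each of the 10 genes on a log axis in the 5 tissues; each point is 1 library, coloured by animal, and the bar is the median of 6 (PAR parotid, SM submandibular, SL sublingual, PANC pancreas, LIV liver). The median of ITPR2 is highest in liver and that of STIM2 in pancreas, ATP2C2 is low in parotid and pancreas, and single libraries of animals 4, 5 and 6 lie far from the rest of their tissue.

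Among the IP3 receptors, ITPR3 was the most abundant form in pancreas, ITPR2 in liver and, by mean share, ITPR1 in parotid. ITPR3, the form known for its place at the apical pole of acinar cells, made up 70.6% ± 11.7 of the summed IP3 receptor TPM in pancreas (SD, n = 6), with a range of 58.5 to 86.0%. ITPR2, known as the main form of hepatocytes, made up 66.1% ± 15.4 in liver (47.1 to 82.6%). ITPR1, the widely expressed form known best from neurons, made up 42.4% ± 8.05 in parotid, ahead of ITPR2 at 29.0% ± 5.72 and ITPR3 at 28.6% ± 10.3. ITPR3 was the leading form in 6 of 6 pancreas libraries. In the parotid library of animal 6 ITPR3 led instead, with 46.1% against 33.7% for ITPR1. In animals 1 and 5 ITPR1 held 36.4% of the parotid sum each, close to ITPR2 at 33.9% and 35.1%. Median shares in submandibular gland were much as in parotid, at 40.9% for ITPR1, 29.0% for ITPR2 and 28.5% for ITPR3, although ITPR3 held 89.4% in animal 4. In sublingual gland ITPR3 held 50.2% ± 14.2.

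**Figure D2:**
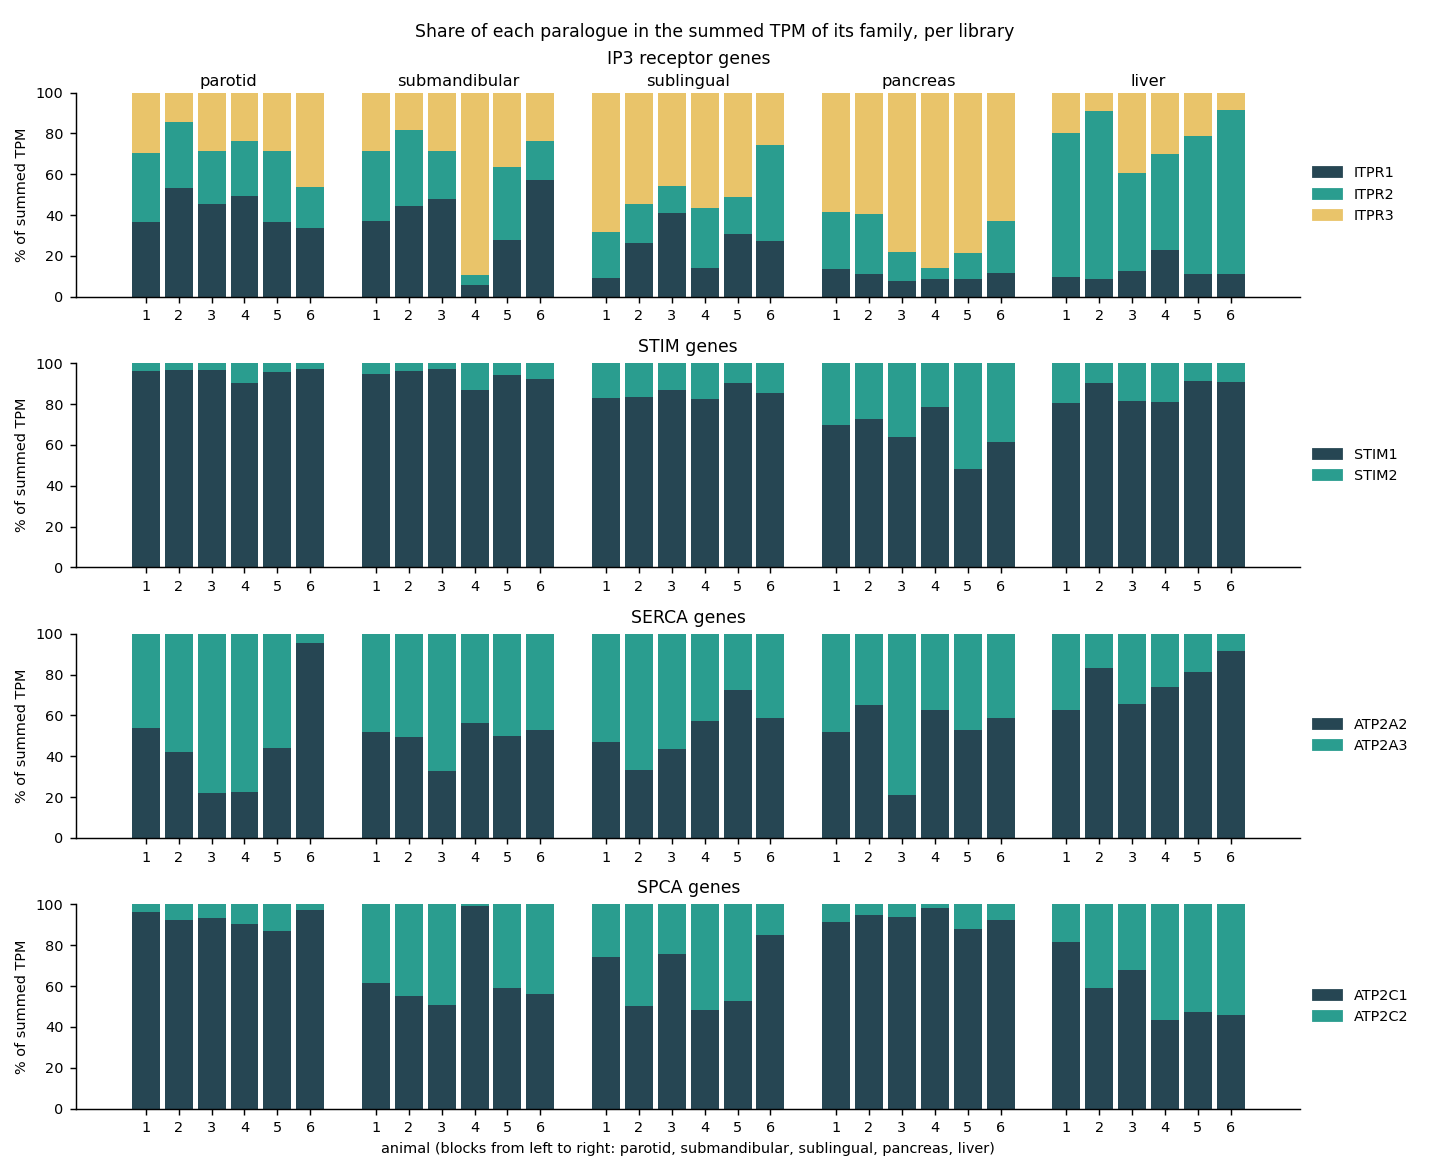
Share of each paralogue in the summed TPM of its family, in percent, for each of the 30 libraries (bars, animals 1 to 6 within each tissue). ITPR3 fills 58.5 to 86.0% of the IP3 receptor bars in pancreas, ITPR2 47.1 to 82.6% in liver, and STIM2 takes its widest share of the STIM bars in pancreas.

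ITPR2 ranged from 2.01 to 5.68 TPM in liver (median 3.11) and from 0.415 to 0.948 TPM in pancreas (median 0.730). Every liver library lay above every pancreas library. ITPR2 was lower in pancreas than in liver (log2 fold change -1.37 on the log2(TPM + 1) scale, SE 0.21, limma adjusted p = 8.745e-06, lower in 6 of 6 animals). The call held in all 14 alternative analyses, with log2 fold changes from -2.12 to -0.82. In bulk tissue, fewer cells of a type and less RNA per cell cannot be told apart. ITPR2 was also lower in each gland than in liver (log2 fold change -1.09 for parotid, -0.99 for submandibular and -0.90 for sublingual gland, limma adjusted p = 0.0001159, 0.0003556 and 0.001301, 6 of 6 animals each). The parotid and submandibular differences depended on the scale: with trimmed-mean factors they were -0.29 and -0.22 and missed the threshold, and relative to all genes except the 100 most abundant they became 0.05 and 0.12.

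ITPR3 was 1.37 to 13.6 TPM in pancreas (median 2.26), 0.595 to 1.64 TPM in liver (median 0.926), 0.761 to 1.40 TPM in parotid (median 0.998), 0.725 to 15.9 TPM in submandibular gland (median 1.21) and 0.518 to 5.75 TPM in sublingual gland (median 4.22). The highest pancreas and submandibular values, 13.6 and 15.9 TPM, both came from animal 4. Its libraries there were poor in acinar markers and rich in adipocyte, blood, fibroblast and smooth muscle, and endothelium markers. The part of those cells in the value was not tested. The next highest values were 4.34 TPM in pancreas and 1.66 TPM in submandibular gland. ITPR3 was higher in pancreas than in liver (log2 fold change 1.06, SE 0.38, limma adjusted p = 0.03776, higher in 6 of 6 animals). Without the pancreas and submandibular libraries of animal 4 this was 0.70 (adjusted p = 0.0273), and the call was lost in 7 of 14 alternatives, with adjusted p up to 0.08633. Against pancreas, ITPR3 in parotid had a log2 fold change of -1.06 that missed the threshold (adjusted p = 0.06006), although all 6 animals were lower in parotid. It passed in 6 of 14 alternatives, among them without the libraries rich in muscle genes (-1.20, adjusted p = 0.0308). It was lower in parotid than in sublingual gland (-1.05, SE 0.38, limma adjusted p = 0.03092), a call lost in 8 of 14 alternatives, both scalings and the one without the muscle-rich libraries among them (-0.86, adjusted p = 0.1599 in the last).

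ITPR1 was 0.771 to 2.88 TPM in parotid (median 1.44), 1.06 to 2.89 TPM in submandibular gland (median 1.69), 0.513 to 4.23 TPM in sublingual gland (median 1.34), 0.258 to 1.36 TPM in pancreas (median 0.355) and 0.439 to 1.12 TPM in liver (median 0.554). The sublingual libraries split into 3 between 2.12 and 4.23 TPM (animals 2, 3 and 5) and 3 between 0.513 and 0.560 TPM (animals 1, 4 and 6). In pancreas, the library of animal 4 was at 1.36 TPM and the other 5 at or below 0.467 TPM, a level under all 6 parotid and all 6 submandibular values. ITPR1 against pancreas missed the threshold in all 3 glands (log2 fold changes 0.81, 0.88 and 0.79 for parotid, submandibular and sublingual, limma adjusted p = 0.05318, 0.05076 and 0.06982). Without the libraries of animal 4 named above, all 3 passed (0.93, 1.09 and 0.91, adjusted p = 0.0236, 0.00847 and 0.0184). Without the libraries rich in muscle genes, parotid (0.92, adjusted p = 0.0228) and submandibular gland (0.88, adjusted p = 0.0311) passed. ITPR1 was higher in submandibular gland than in liver (0.72, SE 0.29, limma adjusted p = 0.03729, higher in 5 of 6 animals), a call lost in 6 of 14 alternatives.

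The ratio of paralogues within a library depends less on the scaling than their levels do. Such ratios, as differences of log2(TPM + 1), were compared within animals in the 4 comparisons of the study, 20 tests in all (an exact permutation test that flips the signs of the animals' differences, both sides). The smallest p that 6 animals allow is 0.03125, reached by 9 of the 20, and adjusted over the 20 it became 0.0694, so 0 passed after adjustment. At least 13 tests at the smallest p would have been needed. The ITPR3-to-ITPR2 ratio was 1.27 ± 0.94 in pancreas and -1.15 ± 0.79 in liver (SD, n = 6), a difference of 2.43 that had the same sign in 6 of 6 animals (exact permutation p = 0.03125). In parotid the ratio was -0.06 ± 0.36, lower than in pancreas in 6 of 6 animals (difference -1.34 ± 0.99, exact permutation p = 0.03125). For ITPR1 to ITPR2, the ratio in parotid exceeded that in pancreas by 0.53 ± 0.29, and the ratio in pancreas that in liver by 1.21 ± 0.37, in 6 of 6 animals each (both exact permutation p = 0.03125).

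For the store sensors, STIM1 was the abundant form in every tissue and STIM2 was relatively more abundant in pancreas. STIM1 opens ORAI1 on store depletion, and STIM2 is known to respond to smaller falls in store calcium. STIM2 was 1.59 to 3.21 TPM in pancreas (median 2.76), 0.338 to 1.01 TPM in parotid (median 0.546), 0.481 to 2.72 TPM in sublingual gland (median 1.69) and 1.03 to 1.83 TPM in liver (median 1.32). In submandibular gland it was 0.530 to 0.733 TPM in 5 animals and 3.98 TPM in animal 4. The ranges of parotid and pancreas did not overlap. STIM2 was lower in parotid than in pancreas (log2 fold change -1.19, SE 0.24, limma adjusted p = 0.001026, lower in 6 of 6 animals), and the call held in all 14 alternatives, between -2.01 and -0.84. In submandibular gland the log2 fold change against pancreas was -0.88 (SE 0.24, limma adjusted p = 0.01788, lower in 5 of 6 animals, animal 4 being the exception). Without the 2 libraries of animal 4 it was -1.10 (adjusted p = 0.000225), while leaving out animal 1, 2, 3, 5 or 6 lost the call, with adjusted p up to 0.1647.

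The pancreas exceeded the liver in STIM2 in 6 of 6 animals (0.63, SE 0.24, limma adjusted p = 0.04921), a value close to the threshold that was lost in 9 of 14 alternatives, with adjusted p up to 0.1581. In sublingual gland the difference from pancreas missed the threshold (-0.51, adjusted p = 0.1777). STIM2 was lower in parotid than in sublingual gland (-0.68, SE 0.24, limma adjusted p = 0.02844), a call lost in 8 of 14 alternatives. Without the libraries rich in muscle genes it was -0.56 (adjusted p = 0.1545), and relative to all genes except the 100 most abundant 0.06.

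STIM1 was 7.24 to 20.4 TPM in parotid (median 12.9), 8.49 to 26.2 TPM in submandibular gland (median 12.6), 2.80 to 25.5 TPM in sublingual gland (median 8.39), 2.92 to 11.9 TPM in pancreas (median 4.77) and 4.97 to 13.9 TPM in liver (median 9.10). All ranges overlapped, and 5 of the 6 pancreas libraries, those other than animal 4, lay below every parotid and submandibular library. STIM1 was higher in submandibular gland than in pancreas (log2 fold change 1.29, SE 0.40, limma adjusted p = 0.03861, higher in 6 of 6 animals). That call was lost in 5 of 15 alternatives, 4 of which left out animal 1, 2, 3 or 5, with adjusted p up to 0.2001. In parotid the log2 fold change of 1.15 missed the threshold (adjusted p = 0.05079), and without the 2 libraries of animal 4 it was 1.47 (adjusted p = 0.005025). Sublingual gland against pancreas (0.64, adjusted p = 0.3344) and pancreas against liver (-0.65, adjusted p = 0.2308) missed it as well, and without those libraries were 0.96 (adjusted p = 0.0439) and -0.97 (adjusted p = 0.0303).

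STIM2 thus made up 34.3% ± 10.6 of the summed STIM TPM in pancreas, against 4.64% ± 2.49 in parotid, 6.41% ± 3.69 in submandibular gland, 14.8% ± 3.06 in sublingual gland and 14.04% ± 5.45 in liver (SD, n = 6 each). The lowest pancreas share, 21.3%, was above the highest share in every other tissue, 19.7% in liver. The STIM2-to-STIM1 ratio was lower than in pancreas by 2.34 ± 0.84 log2 units in parotid and by 2.17 ± 0.82 in submandibular gland, in 6 of 6 animals each (both exact permutation p = 0.03125, adjusted 0.0694 over the 20 tests). Against sublingual gland and liver the pancreas was higher in 5 of 6 animals each (both exact permutation p = 0.0625). With a pseudocount of 0.1 in place of 1 this was 6 of 6 animals each (both exact permutation p = 0.03125, adjusted 0.0568).

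ORAI1, the pore of the store-operated channel, had its lowest median in pancreas, with ranges that overlapped those of all other tissues. It was 2.42 to 17.2 TPM in pancreas (median 2.95), 7.50 to 61.1 TPM in parotid (median 10.2), 5.22 to 22.8 TPM in submandibular gland (median 6.96), 8.12 to 38.0 TPM in sublingual gland (median 18.7) and 11.2 to 30.9 TPM in liver (median 22.6). The highest pancreas, submandibular and sublingual values were those of animal 4, and without it the pancreas libraries lay between 2.42 and 6.12 TPM. The highest parotid value was that of animal 6, and the next was 14.4 TPM.

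ORAI1 was lower in pancreas than in liver (log2 fold change -1.94, SE 0.47, limma adjusted p = 0.00215, lower in 5 of 6 animals), and this held in all 15 alternatives, from -2.44 to -1.23. It was higher in sublingual gland than in pancreas (1.72, SE 0.47, limma adjusted p = 0.01254, higher in 6 of 6 animals), a call lost when animal 1 or animal 5 was left out, with adjusted p up to 0.09988. It was higher in parotid than in pancreas (1.41, SE 0.47, limma adjusted p = 0.04154, higher in 5 of 6 animals), but this call was lost in 9 of 15 alternatives. Without the 3 libraries rich in muscle genes, the parotid library of animal 6 among them, the difference was 0.92 (adjusted p = 0.0731). Muscle genes were high in that library, and their part in its ORAI1 value was not tested. Submandibular gland against pancreas missed the threshold (0.76, adjusted p = 0.3369), although it passed under both other scalings. ORAI1 was lower in submandibular gland than in liver (-1.18, limma adjusted p = 0.03786), a call lost in 8 of 15 alternatives, and relative to all genes except the 100 most abundant the difference was 0.21.

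Of the SERCA pumps, ATP2A2 was far higher in single libraries of animals 5 and 6 than in the others of their tissue. ATP2A2, the form found in all tissues and in slow-twitch and heart muscle, was 13.02 to 16.7 TPM in submandibular gland (median 15.7), 5.98 to 13.3 TPM in pancreas (median 9.90) and 9.09 to 32.7 TPM in liver (median 15.1). In parotid it was 7.74 to 16.9 TPM in 5 animals and 103.8 TPM in animal 6, and in sublingual gland 5.49 to 18.5 TPM in 5 animals and 144.9 TPM in animal 5. Both high libraries were the ones richest in skeletal muscle genes. In them the fast-twitch muscle pump ATP2A1 stood at 4021 and 438 TPM, and the muscle release channel RYR1 at 116 TPM in the parotid library of animal 6. ATP2A1 was also at 410 TPM in the parotid library of animal 1 and at 120 TPM in the sublingual library of animal 1, where ATP2A2 was 16.9 and 16.5 TPM. The part of muscle RNA in the ATP2A2 values was not tested. Without the 3 libraries rich in muscle genes ATP2A2 was 11.3 ± 3.95 TPM in parotid (SD, n = 5) and 12.3 ± 5.45 TPM in sublingual gland (SD, n = 4), against 26.7 ± 37.9 and 35.1 ± 54.0 TPM over all 6. ATP2A2 passed the limma threshold in 0 of the 10 tissue comparisons, and 0 had an unadjusted p under 0.05. Under both other scalings it passed as higher in parotid than in pancreas (1.41 and 1.43, adjusted p = 0.03648 and 0.03044) and than in liver (1.17 and 1.54, adjusted p = 0.04424 and 0.0068). Those fits kept the parotid library of animal 6. Over all 15 alternatives the parotid difference ran from 0.16 to 1.43 against pancreas (limma adjusted p up to 0.7726). Against liver it ran from -0.49 to 1.54.

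**Figure D3:**
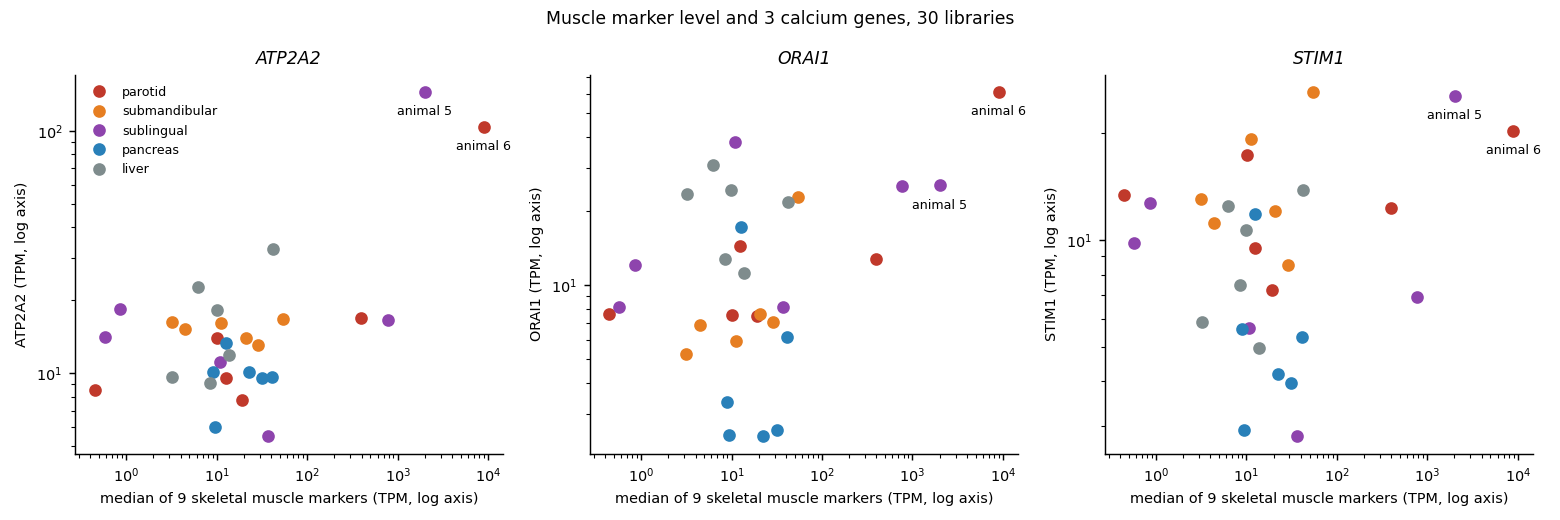
TPM of ATP2A2, ORAI1 and STIM1 against the median TPM of 9 skeletal muscle marker genes, log axes, 1 point per library coloured by tissue. The parotid library of animal 6 and the sublingual library of animal 5, named under their points, have the highest muscle markers and the highest ATP2A2, 103.8 and 144.9 TPM.

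ATP2A3, the SERCA form known from secretory epithelia and blood cells, was higher in each gland than in liver. It was 4.78 to 32.8 TPM in parotid (median 16.8), 11.5 to 32.9 TPM in submandibular gland (median 14.1), 3.85 to 54.8 TPM in sublingual gland (median 21.2), 5.34 to 35.8 TPM in pancreas (median 7.24) and 3.08 to 5.37 TPM in liver (median 4.42). The submandibular libraries lay above all liver libraries, and in parotid and sublingual gland the library of animal 6 alone fell within the liver range. Against liver, ATP2A3 was higher in each gland (log2 fold change 1.63 for parotid, 1.66 for submandibular and 1.76 for sublingual gland, SE 0.41 each, limma adjusted p = 0.001606, 0.001549 and 0.00123), in 6 of 6 animals each, and the 3 calls held in all 15 alternatives. Pancreas against liver was 0.92 and missed the threshold (adjusted p = 0.09144), though higher in 6 of 6 animals. It passed under both other scalings (1.25 and 1.60, adjusted p = 0.01726 and 0.01518) and without the 3 libraries rich in muscle genes (0.92, adjusted p = 0.0365). Without animal 3 it was 0.58 (adjusted p = 0.3723). The pancreas and submandibular libraries of animal 3, at 35.8 and 32.9 TPM, were the highest of their tissues. That pancreas library also had the highest median of islet markers, and the part of islet cells in its value was not tested. As a share of the 2 SERCA genes, ATP2A3 was 23.6% ± 10.9 in liver, 47.9% ± 16.01 in pancreas, 47.9% ± 13.6 in sublingual gland, 51.1% ± 8.23 in submandibular gland and 53.3% ± 27.1 in parotid (SD, n = 6 each). The ATP2A3-to-ATP2A2 ratio was higher in pancreas than in liver by 1.57 ± 0.91 log2 units, in 6 of 6 animals (exact permutation p = 0.03125, adjusted 0.0694 over the 20 tests).

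Of the Golgi pumps, ATP2C1 is found in most tissues and ATP2C2 mainly in secretory epithelia. ATP2C2 was low in parotid and pancreas and clearly detected in the other tissues. It was 0.0799 to 0.270 TPM in parotid (median 0.164) and 0.139 to 0.338 TPM in pancreas (median 0.256), against 0.867 to 9.84 TPM in sublingual gland (median 3.77) and 0.802 to 8.72 TPM in liver (median 4.56). In submandibular gland it was 1.51 to 2.77 TPM in 5 animals and 0.106 TPM in animal 4, the library poor in serous markers. Every sublingual and every liver library lay above every parotid and pancreas library.

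ATP2C2 was higher in sublingual gland than in pancreas (log2 fold change 1.91, SE 0.35, limma adjusted p = 0.0002852, higher in 6 of 6 animals). It was lower in pancreas than in liver (-1.95, SE 0.35, limma adjusted p = 8.534e-05), in parotid than in liver (-2.06, SE 0.35, adjusted p = 2.756e-05) and in parotid than in sublingual gland (-2.02, SE 0.35, adjusted p = 0.0001703), each in 6 of 6 animals. These 4 calls held in all 14 alternatives each. Submandibular gland against pancreas was 1.04 and missed the threshold (adjusted p = 0.06174), and without the 2 libraries of animal 4 it was 1.26 (adjusted p = 0.00915). Parotid against submandibular gland was -1.14 and also missed it (adjusted p = 0.3988), but passed in 4 of 14 alternatives, namely both other scalings (-1.52 and -1.75, adjusted p = 0.03199 and 0.02688), a pseudocount of 0.1 (-2.50, adjusted p = 0.03537) and without the 2 libraries of animal 4 (-1.44, adjusted p = 0.0467). ATP2C2 was lower in submandibular gland than in liver (-0.91, SE 0.35, limma adjusted p = 0.03227), a call that was lost in 9 of 14 alternatives, those without the libraries of animal 4 among them (-0.62, adjusted p = 0.1029), and became 0.35 relative to all genes except the 100 most abundant.

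ATP2C1 was 1.33 to 3.67 TPM in parotid (median 2.17), 2.28 to 12.4 TPM in submandibular gland (median 2.72), 4.95 to 11.005 TPM in sublingual gland (median 6.56), 1.80 to 11.8 TPM in pancreas (median 3.40) and 3.41 to 7.38 TPM in liver (median 5.15). The 12.4 and 11.8 TPM were again from animal 4. Sublingual gland against pancreas was 0.65 (limma adjusted p = 0.2252), and without those 2 libraries 0.96 (adjusted p = 0.00526). The sublingual libraries lay above all parotid libraries (limma log2 fold change of parotid against sublingual gland -1.27, SE 0.34, adjusted p = 0.005283), but the call was lost under both other scalings, at -0.45 and -0.12. Parotid was also lower than liver (-0.90, SE 0.34, limma adjusted p = 0.0253), a call lost when animal 1, 2, 3 or 5 was left out and a direction that turned to 0.02 and 0.34 under the other scalings. ATP2C2 was 7.24% ± 3.84 of the summed ATP2C TPM in parotid and 6.90% ± 3.45 in pancreas, against 36.4% ± 17.8 in submandibular gland, 35.5% ± 15.8 in sublingual gland and 42.6% ± 14.9 in liver (SD, n = 6 each). The lowest sublingual share, 14.9%, was above the highest parotid share, 13.2%. The ratio of ATP2C2 to ATP2C1 in sublingual gland exceeded that in pancreas by 1.26 ± 1.22, and pancreas minus liver was -1.66 ± 1.12, in 6 of 6 animals each (both exact permutation p = 0.03125, adjusted 0.0694 over the 20 tests).

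Counted over the 10 genes, 2 passed the limma threshold in parotid against pancreas (STIM2 lower, ORAI1 higher), where 15.8% of all 13550 genes tested passed (2.24% higher and 13.6% lower). In submandibular gland against pancreas 2 passed (STIM1 higher, STIM2 lower), with 9.71% of all genes (2.25% higher, 7.46% lower). In sublingual gland against pancreas 2 passed (ORAI1 and ATP2C2 higher), with 13.9% of all genes (10.4% higher, 3.51% lower). In pancreas against liver 5 passed (ITPR3 and STIM2 higher, ITPR2, ORAI1 and ATP2C2 lower), with 30.4% of all genes (6.76% higher, 23.6% lower). The glands are compared with one pancreas group, so these counts share libraries. With 10 members, counts of 2 are not far from these shares of all genes.

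The remaining pairs gave 0 genes for parotid against submandibular gland in limma (1 at an unadjusted p under 0.05, with 0.347% of all genes called, 0.133% higher and 0.214% lower), 4, all lower, for parotid against sublingual gland (41.5% of all genes, 0.893% higher and 40.6% lower) and 0 for submandibular against sublingual gland (2 at an unadjusted p under 0.05, 27.9% of all genes called, 0.753% higher and 27.2% lower). Against liver, 4 passed in parotid (1 higher, 3 lower), where 58% of all genes did (4.61% higher, 53.4% lower). In submandibular gland 5 passed (2 higher, 3 lower), with 50.7% of all genes (5.68% higher, 45.1% lower), and in sublingual gland 3 (2 higher, 1 lower), with 31.5% (12.8% higher, 18.7% lower). The third, ITPR3, was higher in sublingual gland than in liver by 1.05 (SE 0.38, adjusted p = 0.03708), a call lost in 7 of 14 alternatives, that without the muscle-rich libraries among them (0.72, adjusted p = 0.2072).

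The members' median log2 fold change was 0.49 in parotid against pancreas, 0.68 in submandibular gland and 0.72 in sublingual gland, beside -0.48, -0.33 and 0.23 over all genes. For pancreas against liver it was -0.47, beside -0.36 over all genes. The counts depended on the scale. With trimmed-mean factors, 8 members passed in parotid against pancreas (6 higher, 2 lower), 7 in submandibular gland (6 higher, 1 lower), 3 in sublingual gland (2 higher, 1 lower) and 6 in pancreas against liver (3 higher, 3 lower). The share of all genes called was then 17.4%, 16.1%, 21.3% and 36.8%. In the other pairs the split of members also moved: with trimmed-mean factors it was 1 higher and 1 lower for parotid against sublingual gland, 5 and 1 for parotid against liver, 4 and 0 for submandibular gland against liver, and 3 and 1 for sublingual gland against liver. Of all genes, 8.43% were higher and 9.11% lower, 20% and 23.5%, 20.8% and 25.9%, and 20.4% and 23.7% in these pairs. Relative to all genes except the 100 most abundant, it was 3 and 3 for pancreas against liver, 6 and 1, 5 and 1, and 2 and 1 for the glands against pancreas in the order above, and 4 and 1, 6 and 1, 6 and 0, and 2 and 1 for the same other pairs. The split of all genes moved as well. On that scale 23.8% were higher and 13.8% lower in pancreas against liver. For the glands against pancreas in the order above it was 8.72% and 7.41%, 9.62% and 6.05%, and 5.61% and 17.5%. In the other pairs it was 21.3% and 4.01% in parotid against sublingual gland, 31.8% and 15.5% in parotid against liver, 35.6% and 15.1% in submandibular gland against liver, and 17.4% and 20.7% in sublingual gland against liver.

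**Figure D4:**
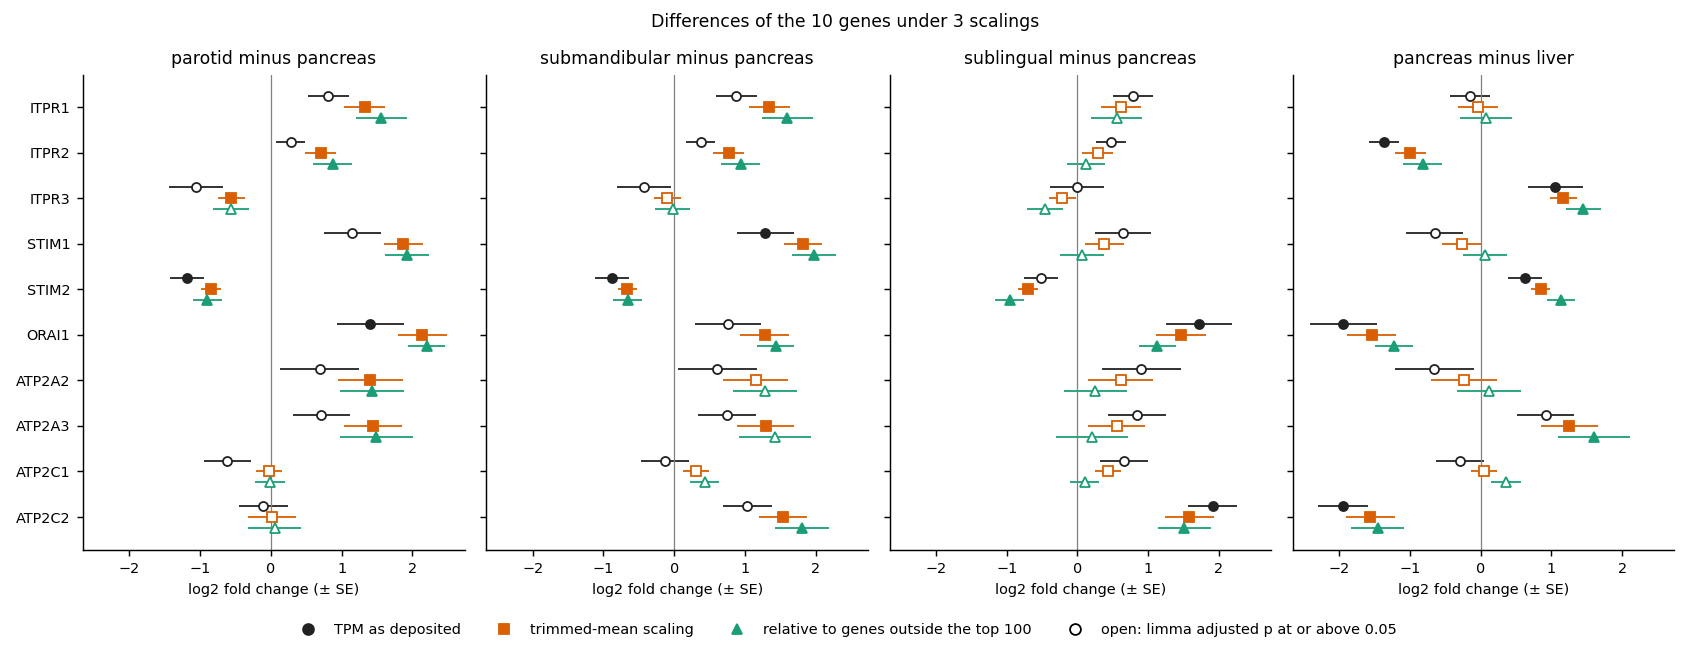
Log2 fold change of each of the 10 genes with its standard error as a bar, in the 4 comparisons of the study, for TPM as deposited (circles), trimmed-mean factors (squares) and values relative to all genes except the top 100 (triangles); filled points passed the limma threshold. Under all 3 scalings STIM2 lies left of 0 in the gland panels and right of 0 in pancreas against liver, and the glands' values for most other genes move to the right in parotid and submandibular gland and to the left in sublingual gland.

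Other genes of calcium signalling were taken from a list of 59, of which 57 were in the table and 49 passed the filter. In parotid against pancreas 20 of the 49 passed (8 higher, 12 lower), in submandibular gland 13 (8 higher, 5 lower), in sublingual gland 11 (7 higher, 4 lower) and in pancreas against liver 10 (2 higher, 8 lower). These are 40.8%, 26.5%, 22.4% and 20.4% of the 49, beside 15.8%, 9.71%, 13.9% and 30.4% of all genes, so that the last lies below the share of all genes. The split moved with the scale: with trimmed-mean factors it was 10 higher and 10 lower, 11 and 4, 5 and 6, and 9 and 8 in the same order, and relative to all genes except the 100 most abundant it was 9 and 8, 13 and 3, 3 and 10, and 9 and 6. Of all genes, trimmed-mean factors gave 8.92% higher and 8.45% lower, 8.25% and 7.82%, 11.4% and 9.97%, and 15.2% and 21.6%. On the other scale the split of all genes was 8.72% and 7.41%, 9.62% and 6.05%, 5.61% and 17.5%, and 23.8% and 13.8%. Without the 2 libraries of animal 4, 23 passed in submandibular gland (9 higher, 14 lower), 21 in sublingual gland (16 higher, 5 lower) and 17 in pancreas against liver (2 higher, 15 lower), where 29.4%, 33.6% and 48.8% of all genes passed. The directions of the calls named below were the same under both scalings, and calls lost under them are stated.

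The 3 listed channels that calcium opens were higher in the glands than in pancreas. Of all genes, 2.24% passed as higher in parotid, 2.25% in submandibular and 10.4% in sublingual gland. All 3 on the list, the chloride channel ANO1 and the potassium channels KCNN4 and KCNMA1, passed in each gland, although ANO1 in sublingual gland (1.33, limma adjusted p = 0.03117) was lost under both other scalings (adjusted p = 0.07962 and 0.1964) and without the libraries rich in muscle genes (adjusted p = 0.1196). KCNN4 was 3.67 ± 2.08 TPM in pancreas, against 35.7 ± 15.3 TPM in the parotid, 43.9 ± 27.6 TPM in the submandibular and 93.2 ± 65.0 TPM in the sublingual libraries (SD, n = 6 each). Its log2 fold changes in that order were 3.00, 3.22 and 3.89 (limma adjusted p = 0.0001052, 5.532e-05 and 2.44e-06), in 6 of 6 animals each. ANO1 was 15.4 ± 5.84 TPM in parotid and 1.02 ± 0.70 TPM in pancreas (log2 fold change 2.99, limma adjusted p = 9.547e-06). In liver ANO1 was 18.8 ± 5.85 TPM, and pancreas was lower than liver by a log2 fold change of -3.29 (limma adjusted p = 4.277e-07).

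The enzymes that make IP3 differed by form. For PLCB2, a phospholipase C form best known from blood cells, each gland was below pancreas (-2.05, -1.81 and -1.33 for parotid, submandibular and sublingual, limma adjusted p = 0.001084, 0.004749 and 0.03338). PLCB4, a related phospholipase C, was higher in all 3 (1.49, 1.82 and 1.37, limma adjusted p = 0.01188, 0.003182 and 0.02158), the sublingual call being lost relative to all genes except the 100 most abundant (adjusted p = 0.150), as it was without the libraries rich in muscle genes (1.22, adjusted p = 0.07807). The sublingual call of PLCB2 was lost there too (-1.43, adjusted p = 0.07104). Of the IP3 receptor partners, 6 were tested. BOK, a Bcl-2 family protein that binds IP3 receptors, was 71.1 ± 33.6 TPM in pancreas and 7.11 ± 3.02 (parotid), 9.39 ± 6.95 (submandibular) and 21.8 ± 16.5 TPM (sublingual) in the glands, lower in all 3 (limma adjusted p = 5.216e-05, 0.0001968 and 0.01069). ITPRID2 was likewise lower in all 3 (log2 fold changes -2.19, -1.22 and -1.42, limma adjusted p = 6.547e-05, 0.02428 and 0.005683, the submandibular call being lost under both other scalings, adjusted p = 0.3078 and 0.4637) and higher in pancreas than in liver (1.56, adjusted p = 0.001083).

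Of the proteins that hold calcium within the store, 5 of 8 passed as lower in parotid than in pancreas (CALR, CANX, HSPA5, HSP90B1 and PDIA4) and RCN1 passed as higher. Of all genes, 13.6% passed as lower there and 2.24% as higher. The calls of CALR, CANX and HSPA5 were lost under both other scalings (adjusted p between 0.2771 and 0.4425), while HSP90B1 and PDIA4 still passed. In sublingual gland 0 of the 8 passed against pancreas in limma (0 at an unadjusted p under 0.05), although CANX did relative to all genes except the 100 most abundant (-0.997, adjusted p = 0.01163), and in submandibular gland PDIA4 passed as lower (lost relative to all genes except the 100 most abundant, adjusted p = 0.09377) and RCN1 as higher. Of all genes, 13.9% passed in sublingual and 9.71% in submandibular gland against pancreas. The difference between the glands in this group was not tested. RCN1, a calcium-binding protein of the endoplasmic reticulum, was 21.8 ± 25.0 TPM in pancreas, 102 ± 20.1 TPM in submandibular gland and 95.7 ± 48.2 TPM in parotid (log2 fold changes 2.61 and 2.37, limma adjusted p = 0.0002138 and 0.0004936). PDIA4 was lower in pancreas than in liver (-2.08, limma adjusted p = 0.0001267), as was HSP90B1 (-1.59, adjusted p = 0.001161).

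For entry and extrusion, CRACR2A, which binds ORAI1 and STIM1, was 5.08 ± 3.502 TPM in sublingual gland and 0.417 ± 0.151 TPM in pancreas (log2 fold change 1.88, limma adjusted p = 9.661e-06, higher in 6 of 6 animals), and it also passed as higher in parotid and submandibular gland. CRACR2B was higher in pancreas than in liver (2.41, limma adjusted p = 0.0001564) and in sublingual gland than in pancreas (1.77, adjusted p = 0.008192), the second call being lost under both other scalings (adjusted p = 0.072 and 0.225). ATP2B2, a plasma membrane calcium pump, was 0.212 ± 0.0751 TPM in pancreas, 0.964 ± 0.739 TPM in sublingual gland, 7.79 ± 2.46 TPM in liver, 5.58 ± 2.76 TPM in submandibular gland and 6.70 ± 3.02 TPM in parotid. It was higher in parotid and submandibular gland than in pancreas (2.59 and 2.22, limma adjusted p = 2.588e-06 and 3.067e-05) and lower in pancreas than in liver (-2.82, adjusted p = 1.168e-07). In sublingual gland against pancreas it missed the threshold. TPCN1, a release channel of endolysosomes, and PLCG2, another phospholipase C, were also lower in pancreas than in liver (-1.83 and -1.27, limma adjusted p = 0.0009264 and 0.0003252). AHCYL1, which binds IP3 receptors at their IP3 site, was lower in sublingual gland than in pancreas (-1.66, limma adjusted p = 0.01116).

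**Figure D5:**
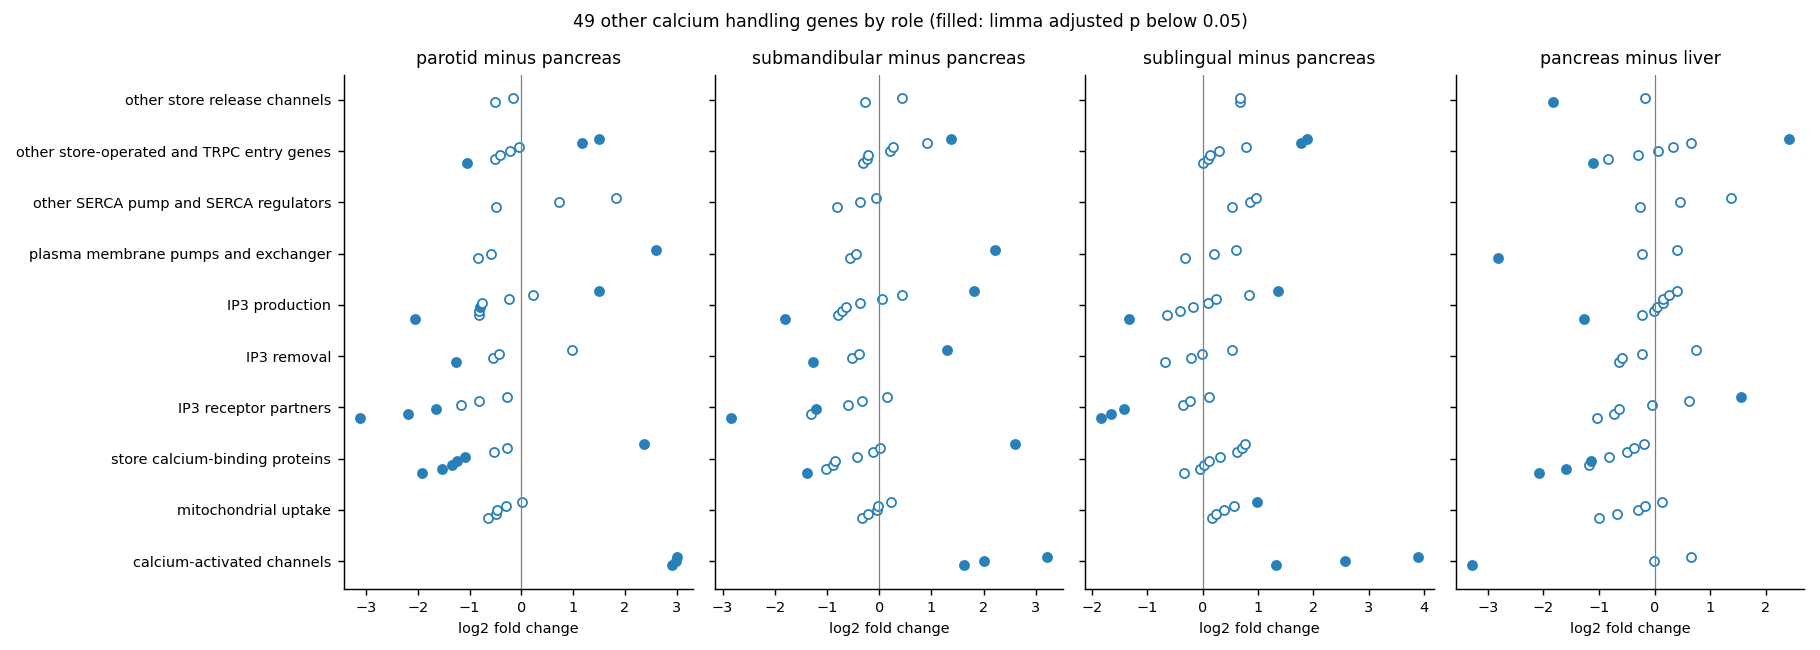
Log2 fold change of the 49 tested calcium signalling genes, by group, in the 4 comparisons of the study; each point is a gene and filled points passed the limma threshold. The calcium-activated channels lie to the right in all gland panels, with 3 of 3 filled. Of all genes, 2.24% passed as higher in parotid, 2.25% in submandibular and 10.4% in sublingual gland against pancreas.

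The genes whose log2(TPM + 1) followed each member most closely over the 30 libraries are given as a description; the points share tissues, animals and the fixed library total, and 12309 named genes were searched. ITPR1 was closest to LAMP5 (Pearson r = 0.911) and to PLCB4 (0.850), the latter itself on the calcium list. ITPR2 was closest to ATP6V0D2 (0.912) and PI4K2B (0.907), and ITPR3 to FBXO44 (0.951) and GABBR1 (0.937). STIM1 was closest to NFIX (0.878) and FNDC5 (0.860), STIM2 to RABGAP1 (0.920) and GLG1 (0.913), and ORAI1 to LRRFIP2 (0.879) and ZNRF1 (0.871). ATP2A2 was closest to PPTC7 (0.915) and SETD7 (0.912), and ATP2A3 to RAP1GAP (0.892) and ITPRIPL1 (0.845). ATP2C1 was closest to MFAP1 (0.946) and SMARCA5 (0.945), and ATP2C2 to SERINC2 (0.814). Among the 10 members themselves, the closest pairs were ITPR3 with STIM2 (0.77), STIM1 with ATP2A2 (0.70) and ITPR1 with ATP2A3 (0.67).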

How the data were processed

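The authors deposited 1 table of TPM values with a column per library (0 per-sample columns were left unused). Its name and the submitters' processing notes give kallisto; the version, transcriptome, genome build and summing of transcripts to genes are not given in the sources used here. Per the labels' protocols, RNA came from tissue sections and was sequenced with paired reads on Illumina HiSeq. TPM keep no depth, so depth is unknown and no counting interval is given. How reads shared by paralogues were divided is not stated, so values of single paralogues, SERCA genes above all, are uncertain to that extent. Tissues were compared with limma 3.58.1 (R 4.3.3) on log2(TPM + 1), a scale that understates changes of low genes. The model held tissue and animal over all 30 libraries, with a mean-variance trend, for the 13550 genes of at least 1 TPM in at least 6 libraries, and it was tested on simulated data. Two-sided p-values were adjusted by Benjamini-Hochberg over all genes within a comparison (threshold 0.05). All 10 members passed the filter. The design allowed for counts; as the values are TPM, no count test was used. Ratios were tested by permutation over animals (Python 3.11.15).

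The labels name the same 6 animals in every tissue, which pairs the libraries; deviations from tissue means correlated at 0.161 within and -0.0186 between animals. The highest correlation between 2 libraries was 0.979, and 0 pairs were identical. Alternatives were no animal block, only the 12 libraries of a pair, trimmed-mean factors (30% of log ratios and 5% of levels trimmed at each end), values relative to all genes except the 100 most abundant, no filter, a filter of 5 TPM, a pseudocount of 0.1 and each animal left out. Leaving out the pancreas and submandibular libraries of animal 4, or the parotid library of animal 6 with the sublingual libraries of animals 1 and 5, was chosen after seeing the data.

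The members and lists were chosen with earlier results of these data known. Named genes were the 10 members, per comparison of the study up to 8 list genes with the largest change past the threshold, and per member the 2 genes with the most similar pattern, 1 of which is not reported here; CALR, CANX and HSPA5 were named after their values were seen, to list a group. All 10 member symbols were also found among the RefSeq genes for T2T-MMU8v2.0. Of the calcium list, 57 of 59 genes were found; IRAG1 and IRAG2 of the calcium list were not analysed here.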

Additional observations from a re-analysis of the deposited data

Results flagged for a closer look

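In each of 50 sets (10 genes in 5 tissues, 6 animals each), the gap of the highest or lowest library to its nearest neighbour was compared with the range of the set. Both were taken on log2(TPM + 1), while the values below are in TPM. A gap above 0.625 of the range was flagged, which chance is expected to give in about 2.5 sets. It was found in 11, 6 of them from animal 4. The sets share the same 30 libraries, so these are not separate events, and no conclusion about chance is drawn from the count. In the submandibular gland of animal 4, ITPR3 was 15.94 TPM (next 1.658), STIM2 3.976 TPM (next 0.7326), ORAI1 22.79 TPM (next 7.604) and ATP2C1 12.4 TPM (next 3.049), while ATP2C2 was lowest at 0.1057 TPM (next 1.51). In its pancreas, ITPR1 was 1.357 TPM (next 0.4672). In the parotid of animal 6, ATP2A2 was 103.8 TPM (next 16.91) and ORAI1 61.1 TPM (next 14.44). ATP2A2 was 144.9 TPM in the sublingual gland of animal 5 (next 18.46). In animal 3, ATP2A3 was 35.79 TPM in pancreas (next 9.499) and 32.92 TPM in submandibular gland (next 16.46). The differences between tissues were also compared between the 4 females and 2 males for each gene and pair of tissues (100 comparisons), and in 0 of them did all females move one way and all males the other.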

How the results depend on the processing

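Having 6 animals per tissue and unknown depth limits what can be told apart, mostly for genes near 1 TPM, and several calls lay close to the threshold. The number of the 10 genes called, out of 2, 2, 2, 5, 0, 4, 0, 4, 5 and 3 in parotid, submandibular and sublingual gland against pancreas, pancreas against liver, parotid against submandibular and sublingual gland, submandibular against sublingual gland, and the 3 glands against liver, moved as follows. Trimmed-mean factors gave 8, 7, 1 (parotid against submandibular), 2 (parotid against sublingual) and 1 (submandibular against sublingual). In these pairs 17.4%, 16.1%, 0.716%, 17.5% and 14.7% of all genes were then called. Values relative to all genes except the top 100 gave 7, 6, 1 (parotid against submandibular), 3 (submandibular against sublingual) and 7 (parotid against liver). Beside these, 16.1%, 15.7%, 0.576%, 27.2% and 47.4% of all genes were called. Only the 12 libraries of the pair gave 4, 4 and, for submandibular gland against liver, 3, with 16.9%, 19.1% and 37% of all genes. No filter gave 1, 1, 3 (pancreas against liver) and 2 (submandibular gland against liver), with 11.9%, 7.95%, 23.5% and 35.3% of all genes. A filter of 5 TPM, which removes members, gave 1 in submandibular and sublingual gland against pancreas, pancreas against liver, parotid against sublingual gland and sublingual gland against liver, and 2 in parotid and submandibular gland against liver. In the same order 12.1%, 14.2%, 34.1%, 46.5%, 32.7%, 65.3% and 58.9% of all genes tested were called. A pseudocount of 0.1 gave 5, 4 and, for parotid against submandibular gland, 1, with 19.9%, 13.2% and 0.487% of all genes.

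Leaving out 1 animal gave 1 to 5, 0 to 4, 1 to 4, 3 to 7, 0, 2 to 4, 0 to 3, 3 to 6, 2 to 6 and 2 to 4 in the order above. The share of all genes called then ran from 6.99 to 20.1%, 4.6 to 29.1%, 8.15 to 31.6%, 20.8 to 48.5%, 0.0369 to 0.635%, 21.1 to 59.7%, 9.45 to 65.4%, 46.4 to 67.3%, 36.2 to 73.1% and 24.6 to 38.5%. The highest counts of the gland comparisons with pancreas came without animal 4, and those of parotid and submandibular gland were lowest without animal 1, 2, 3 or 5. Without the 2 libraries of animal 4 the counts were 4, 4, 5, 1 (parotid against submandibular gland) and 4 (submandibular against sublingual gland), while the share of all genes called went to 19.3%, 29.4%, 33.6%, 0.583% and 66.7% in these comparisons. Without the muscle-rich libraries the counts were 2 (parotid against sublingual gland) and 7 (parotid against liver), with 23.7% and 66.7% of all genes called. Without the animal block, the paired fit's 5 in pancreas against liver became 3 (ITPR3 adjusted p = 0.07611, STIM2 0.05066), ORAI1 in parotid against pancreas had an adjusted p of 0.05115, and STIM1 there passed (0.04163). The share of all genes called in pancreas against liver was then 27.6%. Of 20 paralogue ratios, 9 had a p of 0.03125 in pairs, 12 a p under 0.05 without the block (11 after adjustment), and 11 with a pseudocount of 0.1. With 5 animals that test cannot reach 0.05, so left-out ratios were compared as values only.

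Of 100 differences, 33 changed sign relative to all genes except the top 100 and 23 with trimmed-mean factors, most of them short of the threshold on both scales. Those past it on either scale became, relative to all genes except the top 100, on the log2 scale, 0.7528 (ITPR2), 0.05924 (STIM2) and 1.076 (ORAI1) in parotid against sublingual gland, 0.8196 (ITPR2) in submandibular against sublingual gland, 0.04961 (ITPR2), 0.8857 (ITPR3), 0.9761 (ORAI1) and 0.3437 (ATP2C1) in parotid against liver, and 0.1163 (ITPR2), 0.2089 (ORAI1), 1.399 (ATP2A2), 0.7888 (ATP2C1) and 0.3529 (ATP2C2) in submandibular gland against liver. Trimmed-mean factors gave 0.605 (ITPR3) and 0.01603 (ATP2C1) in parotid against liver. The cause was not tested. Over all settings the number of all genes called ran from 947 to 3616 (2141 as reported) in parotid against pancreas, 623 to 3982 (1316) in submandibular gland, 1049 to 4551 (1887) in sublingual gland and 2817 to 6609 (4114) in pancreas against liver.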
